A study of Homo sapiens with 9 samples.

Results

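The ribosomal DNA copy on chromosome 21 was followed at 11 CCCGGG sites between positions 9825515 and 9827508 (hg19). The stretch around them is taken to hold the 5′ external transcribed spacer with the microRNA genes MIR3648 and MIR3687. No site was placed relative to the ends of the spacer, so single sites may lie outside it. The 11 sites are all those that the table lists in a 10 kb interval of chromosome 21, and each had a value in all 9 libraries. They stand among 64313 sites of the series with a value in at least 2 libraries of each group, and 1160 such sites lie on chromosome 21. The interval was chosen because methylation around it had been seen to be higher in TET1-FL than with the empty vector in these same libraries. Differences between TET1-FL and the empty vector are therefore given as a description, with no test.

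Ribosomal RNA genes are transcribed by RNA polymerase I into a long precursor that begins with the 5′ external transcribed spacer, which is cut away as the RNA matures. The genes lie in tandem repeats on the short arms of the acrocentric chromosomes, and in a cell some repeats are active and others silent, with DNA methylation a known mark of the silent ones. MIR3648 and MIR3687 are microRNA genes annotated inside this spacer. TET1 belongs to the TET enzymes, which oxidise 5-methylcytosine on the way to its removal.

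All libraries came from HEK293T, an established line derived from human embryonic kidney cells that carries the SV40 T antigen. Cells received an empty pIRES plasmid, a TET1-ALT plasmid or a TET1-FL plasmid by lipofection, so the controls were transfected too, and DNA was taken after 4 days (3 libraries per group). The series' title concerns a TET1 isoform without the CXXC domain. Group names are those of the sample titles, since the field for the plasmid repeats a description of the cell line. No source used here describes a selection of transfected cells or says that replicates were separate cultures, so the spread between libraries may be technical. Methylation was read by DREAM, a sequencing method built on paired restriction digests: SmaI cuts CCCGGG where its CpG is unmethylated, and XmaI then cuts the methylated copies and leaves another end. A value is the percentage of methylated reads at a site and rests on at least 20 reads per the labels; the depth is otherwise unknown, and no interval that needs it is given. Values were present at 61549 to 72340 sites per library.

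The CCCGGG sites are part of the ribosomal sequence itself. The RefSeq extract used here (GRCh38.p14) gives 1 mature sequence for the 2 microRNA genes. It is shown with its seed, bases 2 to 8, in capitals, as the product of the MIR3648 gene, read from the entry MIR3648-2 on the plus strand of chromosome 21. MIR3687 had no entry in this extract, which says nothing about RefSeq as a whole. In the RefSeq gene list used here the next gene after MIR3648-2 is MIR10396A. Its hairpin is shown because it carries the recognition sequence, in capitals, that the assay reads.
hsa-miR-3648: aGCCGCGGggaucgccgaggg
MIR10396A hairpin: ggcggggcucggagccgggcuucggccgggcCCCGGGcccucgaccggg
The mature miR-3648 sequence has 0 CCCGGG in its 21 bases but 4 CG dinucleotides, which this assay does not read. The MIR10396A hairpin has 1 CCCGGG in 49 bases. The motif was searched as CCCGGG, which reads the same on both strands, and 60 of the 1562 hairpins in the extract (3.84%) hold it. The hg19 position of the microRNA genes was not used here, so no site is placed inside or outside them.

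The spacing of the 11 sites recurs on an unplaced hg19 sequence. The gaps between neighbours are 380, 198, 18, 36, 160, 19, 38, 120, 57 and 967 bases. A search of all listed sites, in both orientations, found the 11 positions matched within 5 bases at 2 places on chrUn_gl000220, starting at positions 107592 and 151564, and at no other place with 9 or more matches. In both copies the first 9 positions match exactly, the next is 1 base short and the last is 4 bases short. None of these 22 listed sites had a value in any library, and 0 of the 1056 sites listed on unplaced or random sequences had one. All 11 sites of the chromosome 21 copy had values, beside 26.0% of the sites listed on chromosome 21. How reads that match several repeats were placed is not given in the sources used here. The chromosome 21 values and those of other ribosomal repeats thus cannot be told apart, nor can a change per repeat and a change in which repeats were sampled.

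**Figure D1:**
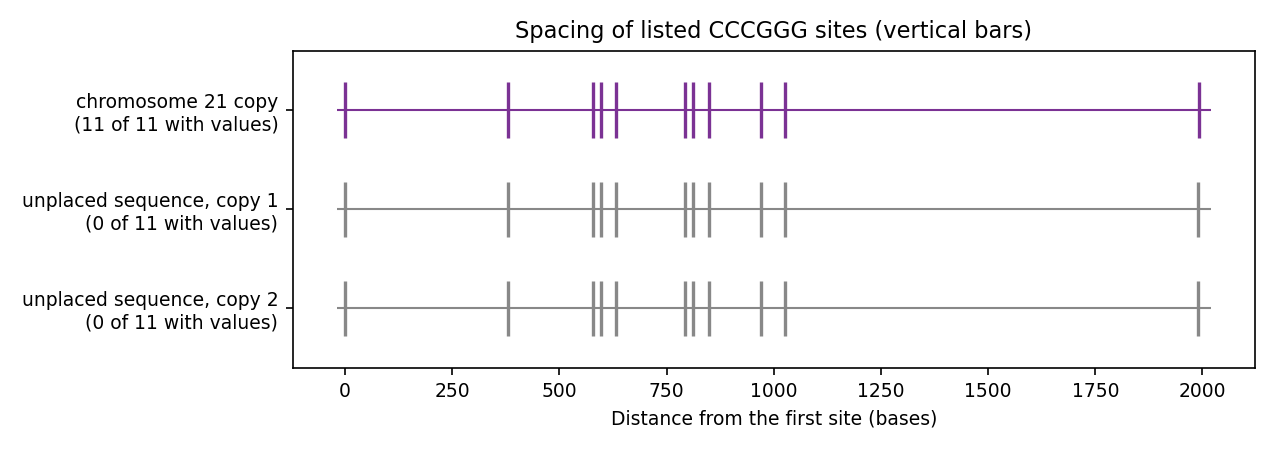
Listed CCCGGG sites (vertical bars) of the chromosome 21 copy and of both matching places on the unplaced sequence, by distance from the first site in bases. The bars line up in the 3 tracks to within 4 bases, while only the chromosome 21 copy has methylation values, at 11 of 11 sites.

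Methylation was uneven over less than 2 kb of the copy. The mean over the 9 libraries was lowest at 9825515, at 19.0%, and highest at 9826326, at 82.3%. Neighbours 18 bases apart, at 9826093 and 9826111, averaged 42.7% and 81.6%. In TET1-FL compared with the empty vector 5 of the 11 sites were higher in every library, 1 was lower in every library and 5 overlapped. Over all 64313 sites the corresponding shares were 2.38% higher and 15.2% lower. The interval was chosen on this contrast, so nothing is read from these counts.

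The largest differences were at 9826364 and 9826484, 120 bases apart. At 9826364 the empty vector libraries had 18.28, 33.95 and 32.47% in replicates 1, 2 and 3. TET1-ALT libraries had 37.31, 39.48 and 43.27%, and TET1-FL libraries had 45.67, 48.41 and 44.01%. The 3 groups did not overlap, with the empty vector lowest and TET1-FL highest. Group means were 28.2% ± 8.65, 40.02% ± 3.02 and 46.0% ± 2.22 (SD, n = 3 each) in that order, and TET1-FL exceeded the empty vector by 17.8 percentage points (10.1 to 30.1 over pairs of libraries).

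The partner site at 9826484 gave nearly the same values library by library. It had 18.57, 34.34 and 32.67% in the controls, 37.71, 40.33 and 43.86% in TET1-ALT and 46.54, 48.97 and 44.32% in TET1-FL. The readings at this pair differed by 0.20 to 0.87 points in each of the 9 libraries. Whether neighbouring sites were read from the same fragments was not tested. TET1-FL exceeded the empty vector by 18.1 points (9.98 to 30.4 over pairs of libraries), again with no overlap among the 3 groups.

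Next along, 9826541 lies 57 bases further. Its empty vector values were 34.44, 38.32 and 35.30%, and TET1-FL had 46.52, 52.26 and 48.05%. TET1-ALT spread widely here, at 34.77, 46.69 and 52.96%, and overlapped both other groups. TET1-FL was 12.9 points above the empty vector (36.0% ± 2.04 and 48.9% ± 2.97, SD, n = 3 each).

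Upstream, 9826093 had 27.47, 41.40 and 39.34% in the empty vector libraries, 43.12, 44.18 and 44.24% in TET1-ALT and 47.27, 50.44 and 46.43% in TET1-FL. The order of the groups was that of the pair at 9826364 and 9826484, without overlap. TET1-FL exceeded the empty vector by 12.0 points. At 9825895 the values were 19.98, 32.72 and 32.79% for the empty vector, 33.34, 32.86 and 32.04% in TET1-ALT and 36.53, 38.99 and 33.11% in TET1-FL. The groups were closer together at this site: the lowest TET1-FL library lay 0.32 points above the highest empty vector library, and TET1-ALT overlapped both.

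Empty vector replicate 1 stood apart at 4 of these 5 sites. Replicate 1 minus the mean of replicates 2 and 3 was -12.8 points at 9825895, -12.9 at 9826093 and -14.9 at both 9826364 and 9826484. At 9826541 the same quantity was -2.37. Over 384 other chromosome 21 sites of like methylation its median was -0.045 points, with 5th and 95th percentiles of -10.1 and 7.95. Of the chromosome 21 sites within 5 points of each mean, 2 of 34 lay as low as 9825895 and 1 of 37 as low as 9826093. At 9826364 and 9826484 it was 0 of 35 each, and at 9826541 it was 9 of 34. Without replicate 1, TET1-FL exceeded the empty vector by 3.46 points at 9825895, 7.68 at 9826093, 12.8 at 9826364, 13.1 at 9826484 and 12.1 at 9826541. TET1-FL lay above every empty vector library at these 5 sites, so leaving out replicate 1 could not bring about an overlap.

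A pair of sites inside the same stretch hardly varied. At 9826147 all 9 libraries lay between 32.77 and 35.34%, and at 9826307 between 28.88 and 31.19%. Group means at 9826147 were 34.8% ± 0.653 for the empty vector, 34.5% ± 0.849 in TET1-ALT and 33.8% ± 0.913 in TET1-FL (SD, n = 3 each). At 9826307 they were 30.6% ± 0.755, 30.4% ± 0.601 and 29.6% ± 0.696 in the same order. TET1-FL was 1.01 and 0.940 points below the empty vector (differences of -1.01 and -0.940), with overlapping libraries at both. These differences were -0.490 and -0.557 points without TET1-FL replicate 3. Without empty vector replicate 1 they were -1.37 and -1.36 points, and TET1-FL then lay below both remaining empty vector libraries at both sites. The value at 9826147 exceeded that at 9826307 by 3.78 to 4.34 points in each library. These sites lie between 9826093 and 9826364, where the difference was 12.0 and 17.8 points.

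The 2 highly methylated sites, 9826111 and 9826326, were also steady. At 9826111 the libraries lay between 78.90 and 82.99%, with group means of 81.4% ± 2.21, 81.8% ± 0.323 and 81.6% ± 1.19 for empty vector, TET1-ALT and TET1-FL. At 9826326 they lay between 79.99 and 85.36%, with means of 83.1% ± 2.20, 82.5% ± 1.98 and 81.3% ± 1.18. The groups overlapped at both sites, and TET1-FL minus empty vector was 0.147 and -1.77 points. With each library left out these values ranged from -1.12 to 0.925 at 9826111, where the sign thus changed, and from -2.82 to -0.633 at 9826326; both lowest and highest were set by leaving out an empty vector library.

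The 2 ends of the copy differed from each other in direction. At 9825515 TET1-FL had 18.26, 19.62 and 14.37%, below the empty vector at 20.31, 20.88 and 25.61%, a difference of -4.85 points without overlap (-3.18 without empty vector replicate 3). TET1-ALT had 20.75, 16.88 and 14.71% there. At 9827508, which is 967 bases beyond its nearest neighbour, the libraries ranged over 38.27 to 46.12% for the empty vector, 38.32 to 49.99% in TET1-ALT and 43.02 to 50.71% in TET1-FL. These ranges overlapped, and TET1-FL minus empty vector was 3.63 points. That value rested on single libraries: it was 5.55 without empty vector replicate 1, where the remaining libraries no longer overlapped, 1.63 without empty vector replicate 3 and 1.23 without TET1-FL replicate 1.

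**Figure D2:**
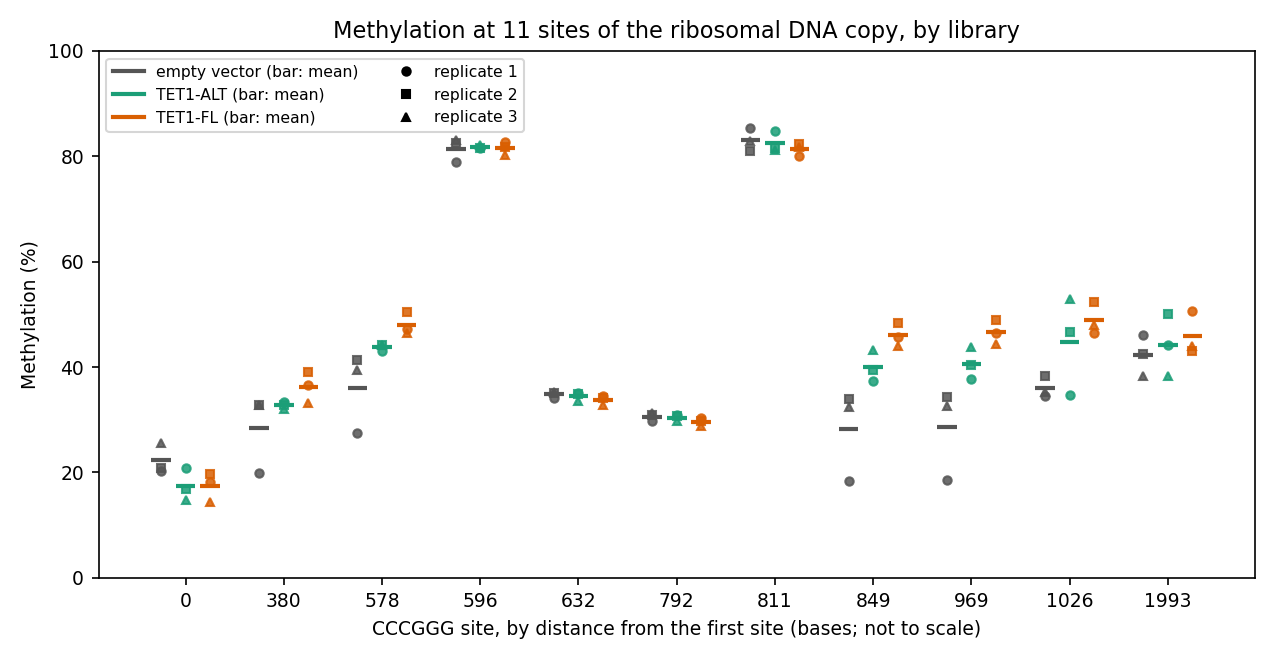
Methylation in percent at each of the 11 sites, ordered along the copy and named by distance from the first site in bases. Points are single libraries (shape gives the replicate) and bars are group means; the sites at 849 and 969 bases show the widest separation of groups, and those at 596, 632, 792 and 811 bases the narrowest spread.

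Averaged over the 11 sites, methylation of the copy was higher in every TET1-ALT and TET1-FL library than in any empty vector library. The mean was 37.6, 43.03 and 42.6% in the empty vector libraries, 43.95, 45.4 and 45.1% in TET1-ALT and 47.2, 48.2 and 45.3% in TET1-FL. TET1-FL replicate 3 lay inside the TET1-ALT range, so those groups overlapped. Group means were 41.1% ± 3.04, 44.8% ± 0.759 and 46.9% ± 1.47 (SD, n = 3 each). TET1-FL differed from the empty vector by 5.79 points (2.24 to 10.6 over pairs of libraries) and from TET1-ALT by 2.05 points (-0.126 to 4.20). TET1-ALT differed from the empty vector by 3.74 points (0.925 to 7.82), and by 1.985 points without empty vector replicate 1. When each library was summarised by its median over the 11 sites in place of its mean, the group means of those medians differed by 13.0 points for TET1-FL and 6.95 for TET1-ALT against the empty vector, and by 6.01 between the TET1 forms.

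Other chromosome 21 sites of like methylation averaged lower in TET1-FL. These were the 384 sites outside the surrounding 100 kb whose mean over all libraries lay between those of the lowest and highest of the 11 sites, 350 of them with values in all 9 libraries. Their mean was 59.8% ± 0.441 for the empty vector, 59.0% ± 1.06 in TET1-ALT and 57.7% ± 0.287 in TET1-FL (SD, n = 3 each), so TET1-FL was 2.09 points lower (difference -2.09). All TET1-FL libraries had lower means than any empty vector library. The set spans the range of the 11 sites but is not matched to their average level. Copy minus set averaged -18.7 points for the empty vector and -10.8 in TET1-FL. This quantity was thus 7.88 points higher in TET1-FL (4.13 to 12.5 over pairs of libraries), as part of the contrast on which the copy was chosen. It includes the fall of the set itself. TET1-FL was higher than the empty vector at 93 of the 384 sites (24.2%), with libraries apart at 7, and at 7 of the 11 ribosomal sites, with libraries apart at 5. The median of the single-site differences was -1.97 points over the 384 sites and 3.63 over the 11.

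**Figure D3:**
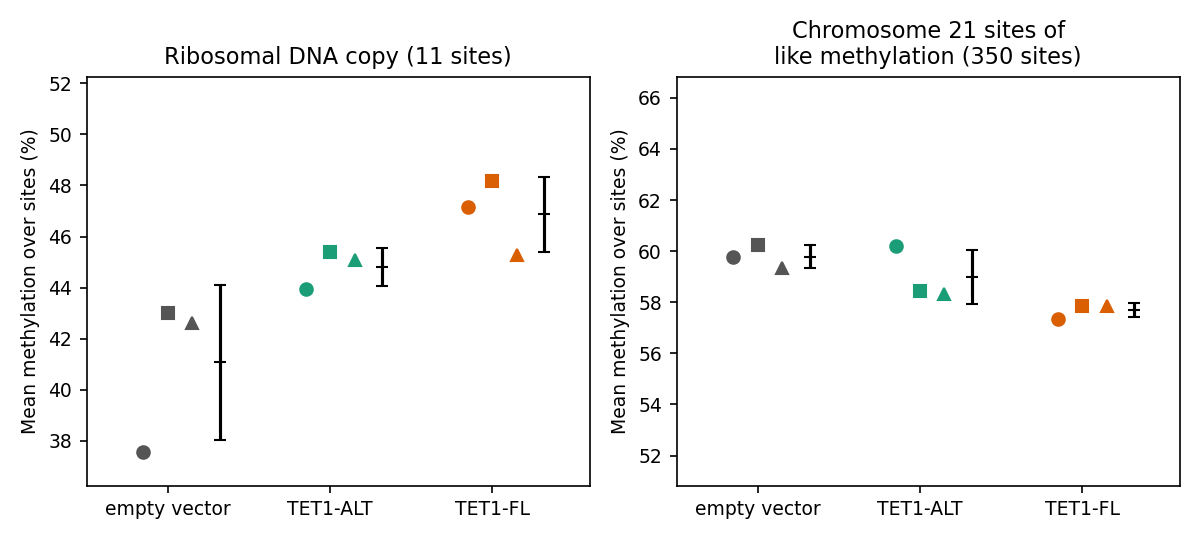
Mean methylation in percent over the 11 sites of the ribosomal copy (left) and over 350 chromosome 21 sites of like methylation (right), by library, with the group mean ± SD (n = 3) beside the points; both vertical axes span the same number of points and neither starts at 0. TET1-FL is the highest group on the left, at 46.9%, and the lowest on the right, at 57.7%.

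For a description site by site in this contrast, each site was set beside the chromosome 21 sites within 5 points of its own mean. The interval was chosen for a rise in this contrast, so high ranks were likely beforehand and nothing is read from them. None of 35 such sites had a difference between TET1-FL and the empty vector as high as 9826364 or 9826484, where the highest of them was 8.23 points. At 9825895, 9826093 and 9826541 a single site of 34, 37 and 34 reached the ribosomal value. At the steady pair 9826147 and 9826307, 17 of 34 and 15 of 29 did, which places them in the middle of their peers. At the highly methylated sites 9826111 and 9826326, 13 of 86 and 32 of 77 did. At the ends of the copy, 22 of 24 sites had a higher difference than 9825515, and 2 of 35 one as high as 9827508.

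**Figure D4:**
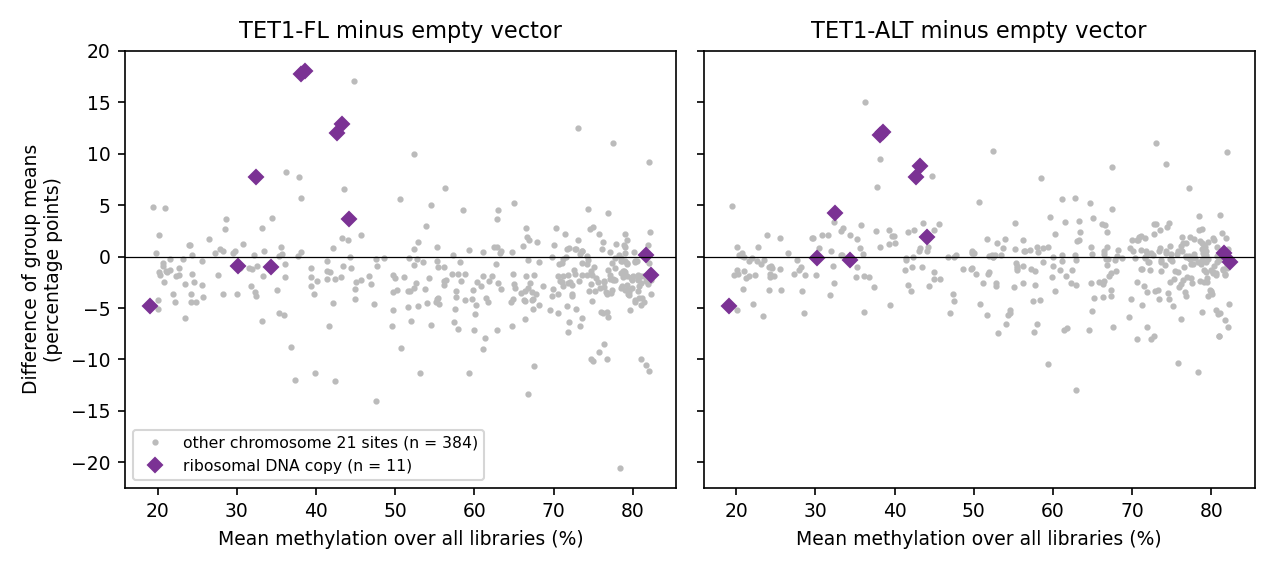
Difference of group means in percentage points against mean methylation over all libraries in percent, for TET1-FL (left) and TET1-ALT (right) minus the empty vector; diamonds are the 11 ribosomal sites and dots 384 other chromosome 21 sites. Both panels use the same empty vector libraries; 5 diamonds lie between 7.71 and 18.1 points on the left, where the dots have a median of -1.97.

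TET1-ALT was set against the empty vector to ask whether the isoform alters methylation of the copy. It shares the empty vector libraries with the contrast on which the interval was chosen, so the 2 comparisons are not independent. TET1-ALT lay above all empty vector libraries at 3 of the 11 sites, 9826093, 9826364 and 9826484, and below them at 0; over all 64313 sites these shares were 3.51% and 10.6%. The differences were 7.78, 11.8 and 12.1 points. In limma, fitted to all 64313 sites with Benjamini-Hochberg adjustment, 0 of the 11 sites and 0 sites of the table (0%) were called at an adjusted p under 0.05. The limma adjusted p of the 11 sites ranged from 0.670 to 0.990. At an unadjusted p under 0.05 there were 2 of the 11 sites, 9826364 (SE 4.05) and 9826484 (SE 4.07), and 4697 of the 64313 sites of the table. This pair gave nearly the same values in every library, so here and in the count of 3 its second site adds little. Without empty vector replicate 1 the 3 differences were 3.48, 6.81 and 7.13 points. TET1-ALT then lay at the empty vector level at 9825895 (-0.00833 points, from 4.25 with all libraries and 6.40 without empty vector replicate 3).

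Full-length TET1 and TET1-ALT were compared with each other on the same sites. TET1-FL lay above all TET1-ALT libraries at 3 of the 11 sites and below them at 0, beside 2.14% and 7.38% of all sites. These were again 9826093 (4.20 points, 2.19 to 7.32 over pairs of libraries), 9826364 (6.01, 0.740 to 11.1) and 9826484 (5.98, 0.460 to 11.3). At the latter pair the closest libraries were thus less than 1 point apart. In limma 0 of the 11 sites and 0 of 64313 (0%) were called, with adjusted p from 0.979 to 1, and 0 of the 11 and 3472 sites of the table had an unadjusted p under 0.05. The comparison shares the TET1-FL libraries with the contrast on which the interval was chosen. At 9826541 TET1-FL exceeded TET1-ALT by 4.14 points, but that rested on single libraries, with -0.882 without TET1-ALT replicate 1, 8.21 without TET1-ALT replicate 3 and 2.48 without TET1-FL replicate 2.

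Spread between libraries also differed from site to site. The SD over all 9 libraries was 9.15 points at 9826364 and 9.28 at 9826484, above all 35 chromosome 21 sites within 5 points of their means, whose median SD was 3.44 and 3.37. It was 0.832 points at 9826147 and 0.736 at 9826307, below all 34 and 29 such sites, with medians of 3.27 and 2.64. The steadiest and the most variable sites of the copy are thus 57 bases apart at the closest, from 9826307 to 9826364. These SDs include the differences between groups. A further 13 listed sites of 20 to 80% methylation lay on sequences outside the human genome, taken here as spiked-in standards. By name these sequences number more than the 5 standards of the labels, so not all need be standards, and each holds several of the sites. The 13 sites had TET1-FL minus empty vector differences from -1.72 to 2.50 points and a median range over libraries of 3.11 points. Replicate 1 of the empty vector lay from -0.990 to 1.80 points from the mean of replicates 2 and 3 at those sites. The authors' adjustment was itself made with spiked-in standards, so these values are no independent measure of the spread between libraries.

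**Figure D5:**
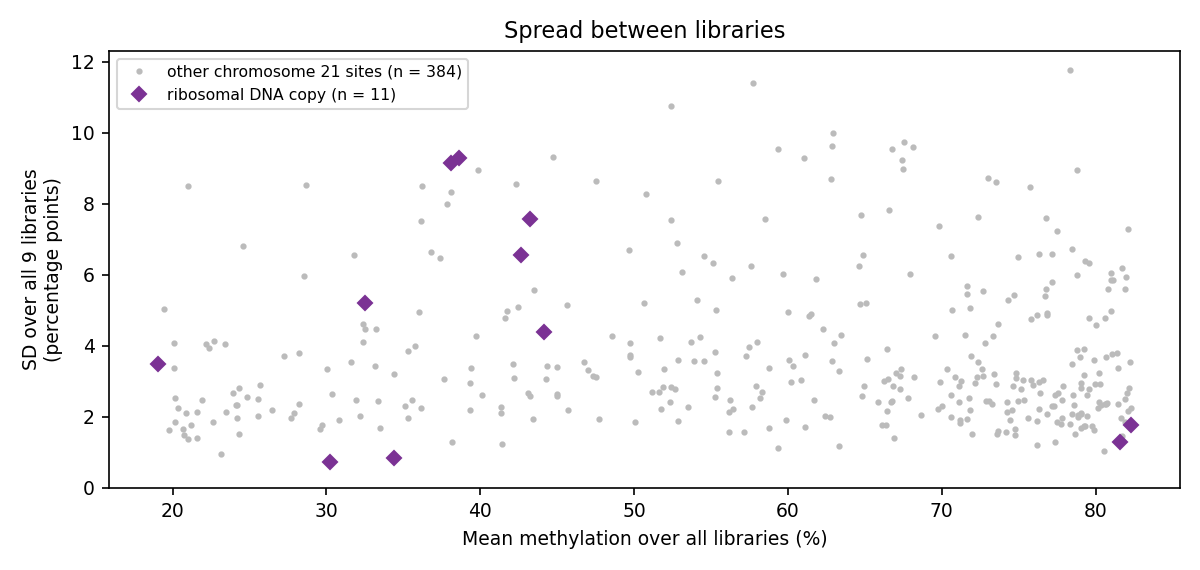
SD over all 9 libraries in percentage points against mean methylation in percent, for the 11 ribosomal sites (diamonds) and 384 other chromosome 21 sites (dots). The diamonds at 9.15 and 9.28 points lie above, and those at 0.832 and 0.736 points below, all chromosome 21 sites within 5 points of their own mean.

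Neighbouring sequence of chromosome 21 carried few measured sites. Between 9 and 15 Mb a further 193 CCCGGG sites are listed, of which 11 were measured in 2 or more libraries of every group. Their TET1-FL minus empty vector differences ranged from -4.38 to 1.39 points, with libraries overlapping at all 11. The nearest, at 9878443, averaged 6.75% ± 2.39 for the empty vector, 5.97% ± 4.41 in TET1-ALT and 5.97% ± 2.64 in TET1-FL (SD, n = 3 each). The next, at 9878749, was closer to the ribosomal sites in level, with 33.6% ± 4.50, 28.9% ± 5.54 and 29.2% ± 4.29 in the same order. The higher level in TET1-FL was thus not seen at these 11 sites, of which 4 had a mean of 20 to 80%.

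Elsewhere in the genome, 100 kb windows with at least 5 complete sites of 20 to 95% methylation were ranked by how closely their mean followed that of the ribosomal copy over the 9 libraries. Of 1758 windows the closest was on chromosome 8 from 48600001 to 48700000 (Pearson r = 0.954, Spearman rho = 0.900), with 46.0% ± 3.23 for the empty vector, 50.3% ± 2.09 for TET1-ALT and 53.6% ± 1.27 for TET1-FL. Next were chromosome 8 from 600001 to 700000 (r = 0.826, rho = 0.717), chromosome 10 from 3100001 to 3200000 (r = 0.805, rho = 0.550), chromosome 2 from 242400001 to 242500000 (r = 0.740, rho = 0.783) and chromosome 12 from 600001 to 700000 (r = 0.735, rho = 0.467). The median r of all windows was -0.484. The points share libraries and each library's overall level, and the windows were taken for their r, so no p is given.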

How the data were processed

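DREAM libraries of HEK293T DNA were analysed in 3 groups of 3. The deposited table gives percent methylation per CCCGGG site. Per the labels' design text, the authors divided methylated reads by all reads of a site and adjusted the ratio by spiked-in controls of digestion efficiency. Per the labels, DNA carried 5 standards, libraries were amplified with 18 PCR cycles and a value needed at least 20 reads. Per the submitters' processing notes the build is hg19. No aligner or caller is named in the sources used here.

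The 11 members, the comparison sets and the tests were chosen with earlier results of these data known. All 11 are named. Group means, SDs and pairwise differences were computed from the percent values (Python 3.11.15, pandas 2.3.3). limma 3.58.1 (R 4.3.3) was fitted per site to all 9 libraries over 64313 sites, with Benjamini-Hochberg adjustment. The fit used a mean per group, intensity trend and robust moderation. It was run on simulated data as a check of the code. How often differences of the size seen at the 11 sites would be called is not reported here. Sites of like methylation were defined on the mean over all libraries. Windows like the copy were the 5 of highest Pearson r. Alternatives covered scale, site choice, moderation, groups fitted, a replicate block and each library left out. Counting near-equal neighbours once was added after seeing the data.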

Additional observations from a re-analysis of the deposited data

How the results depend on the processing

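TET1-FL minus empty vector, TET1-ALT minus empty vector and TET1-FL minus TET1-ALT, averaged over the 11 sites, were 5.79, 3.74 and 2.05 points. With each library left out they ranged from 4.04 to 6.77, 1.985 to 4.71 and 1.41 to 2.85. The lowest values of the first pair were those without empty vector replicate 1. In that pair of comparisons every pair of libraries gave a positive difference, so the sign could not change there. With each library's median over sites in place of its mean the 3 differences were 13.0, 6.95 and 6.01. Relative to like chromosome 21 sites the last was 3.35. Counting the near-equal pair once gave 4.58, 2.92 and 1.66. Replicate numbers are shared between groups, but same-numbered libraries did not deviate together (r from -0.0140 to 0.0151 over 14882 sites). A replicate block cannot alter the 3 values of 5.79, 3.74 and 2.05, as every group holds the same replicate numbers. In limma with the block 0 sites were called in each comparison.

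With each library left out, limma called 0 to 2, 0 to 4 and 0 to 0 sites of the table. Sites above the other group numbered 5 to 6, 3 to 4 and 3 to 4 of 11, and sites below it 1 to 3, 0 to 4 and 0 to 2. Leaving out a library can keep or raise such counts but never reduce them. The shares over all sites were not computed with a library left out, so nothing is read from these counts. For TET1-FL the count below was 3 without empty vector replicate 1 and 2 without replicate 2; for TET1-ALT it was 4 without empty vector replicate 1 and 1 without TET1-ALT replicate 1; between the forms it was 2 without TET1-ALT replicate 3. Over 154 values per comparison under all alternatives, single sites changed sign 2, 9 and 6 times, at 1, 6 and 4 sites. Only the change of scale and leaving out a library of the 2 groups compared could alter a difference. Many of the 154 values thus could not change, and their number is no measure of stability. In limma none of the 11 was called in the last pair of comparisons (lowest adjusted p 0.443 and 0.878). Read depth per site is unknown.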

Other observations

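The 2 highly methylated sites of the copy are those with a listed CCCGGG close by on both sides, 18 and 36 bases away at 9826111 and 19 and 38 bases away at 9826326. Outside the surrounding 100 kb the table had 22 sites with both neighbours within 40 bases and a value in at least 2 libraries of each group. Of these, 17 (77.3%) averaged 75% or more and 0 averaged under 5%, beside 35.3% and 37.5% of the other 64278 sites. Both ribosomal sites exceeded the higher of their neighbours by 39.0 and 44.2 points. Where all 3 sites of such a triplet had values, 1 of 12 others exceeded its higher neighbour by at least 30 points, on chromosome 2 at 219748512, with 97.6% between neighbours of 32.8 and 14.2%. In 3 of these 12 triplets the higher neighbour averaged 20 to 80%, as in the ribosomal pair, and 1 of the 3 reached 30 points, with a median excess of 19.6. This pattern was noticed in these data, and its relation to the digestion was not tested.

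The pair 9826364 and 9826484 tracked each other closely in all 9 libraries. Elsewhere in the table, 1477 neighbouring pairs lay over 100 and up to 250 bases apart with both means from 20 to 80% and values in all 9 libraries. Their largest difference in any library had a median of 17.9 points, and 1 of the 1477 stayed within 1 point in every library, as this pair did. The ribosomal pair was singled out for its near-equal readings after seeing the data, so the comparison is a description and no test.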
